A study of Mus musculus with 21 samples.

Results

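CD4+ T cells sorted from the spleen of mice housed in an enriched environment (EE) were compared with those of mice housed in a standard environment (SE). The samples were chosen by their labels, which gave 11 of the 21 samples of the series, 6 from EE and 5 from SE. The other 10 samples were CD8+ T cells and are used only where a value in CD4+ cells needs a reference. All mice were female C57BL6/J. EE mice entered their cage at 4 weeks of age and stayed for 4 weeks, 12 to 15 together in 9120 cm2 with objects and running wheels, and SE mice of the same age lived 5 to 6 together in 666 cm2. According to the labels the animals analysed from 1 environment shared a cage, and an effect of the cage cannot be told apart from one of the environment. Each sample is 1 animal, and the purpose of the comparison was to find what housing changes in the transcriptome of peripheral CD4+ T cells.

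CD4+ T cells are the helper cells of adaptive immunity, which read peptides on MHC class II molecules and steer other cells through cytokines. In the spleen of a young mouse most of them are naive, which means that they have not met their antigen and recirculate through lymphoid tissue on a program held by factors such as Tcf7, Lef1 and Satb1. A smaller part is antigen-experienced, and these cells carry S100 proteins, galectins, chemokine receptors and receptor chains for interleukins that naive cells hold at low level. Bulk RNA from sorted cells adds all of these states together, so that fewer cells of a state and less RNA per cell cannot be told apart.

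Expression was measured as molecules carrying a unique molecular identifier (UMI), a random barcode by which amplified copies of a molecule are counted once. The values are normalized counts, that is molecules divided by a size factor of the sample. Samples held 145546 to 183941 molecules in EE (median 164056) and 157556 to 190885 in SE (median 176086), a difference within the spread (p = 0.236 by an exact two-sided permutation test, whose smallest possible p is 0.00216). Cd4, which encodes the coreceptor the sort used, averaged 63.5 ± 13.5 (SD, n = 6) in EE samples and 52.2 ± 6.79 (SD, n = 5) in SE samples, against 0.374 in the CD8+ samples. Cd8a averaged 0.460 ± 0.771 and 1.17 ± 1.31 in the same groups, and Cd8b1, the other CD8 chain, was above 0 in all CD4+ samples, from 1.26 to 9.15, against 205 in the CD8+ samples.

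Genes were ranked by the moderated t of limma on log2(normalized count + 1), a scale that understates the fold of genes with few molecules. The fit took the 7939 genes with a mean above 2 over the 11 samples. Only 1 gene, S100a6, passed an adjusted p of 0.05 (0.0126% of those tested, limma with Benjamini-Hochberg adjustment), and it is counted but not described on its own here. The call did not hold throughout: 0 genes passed with a pseudocount of 0.5, with genes of a mean above 10 only, with the replicate number as a block, or in 5 of the 11 fits that left out a sample (EE replicates 2, 4 and 5, and SE replicates 1 and 5). At an unadjusted p under 0.05, 5.82% of the genes were past the limit, with 232 higher (2.92%) and 230 lower (2.9%) in EE. All 6 EE samples lay above all 5 SE samples for 17 genes (0.214%) and below them for 19 genes (0.239%). Log2 fold changes were above 0 for 50.1% and below 0 for 49.9% of the genes, with a median of 0.0012 and quartiles of -0.26 and 0.26. Of the genes fitted, 677 had a mean above 2 in 1 group alone, and 74 of these were past the unadjusted limit. Such a gene entered only through the group where it was high, so its count supports nothing, and values without such genes, an alternative added after seeing the data, are given for the lists described in depth where a median moved by over 1.5 times or a list lost its only call in a direction. These shares are the background against which the counts below are read.

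The ranked list was read through 103 gene lists, of which 83 had at least 8 tested members. Their median log2 fold changes ran from -0.33 for nuclear pore proteins to 0.43 for antigen-experienced CD4 genes, and 62 of the 83 medians were above 0. The 6 highest medians belonged to antigen-experienced CD4 genes, type 1 helper genes, receptor chains for interleukins and interferons, B-cell genes, mitosis genes and clustered histone genes. The 6 lowest belonged to nuclear pore proteins, pseudogenes of ribosomal proteins, naive T-cell genes, TGF-beta and SMAD genes, the predicted genes of the Gm series, and p53 targets with DNA damage genes. The other 71 medians lay between -0.11 and 0.19. A list is described by its counts and its median, and no list was tested as a whole. A list score is the mean over tested members of the log2 value after each gene was centred on its mean over the 11 samples. The lists at either end were picked by their medians over these same samples, so a separation of their scores is no independent support. The share of all 83 lists with such a separation was not counted.

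**Figure D1:**
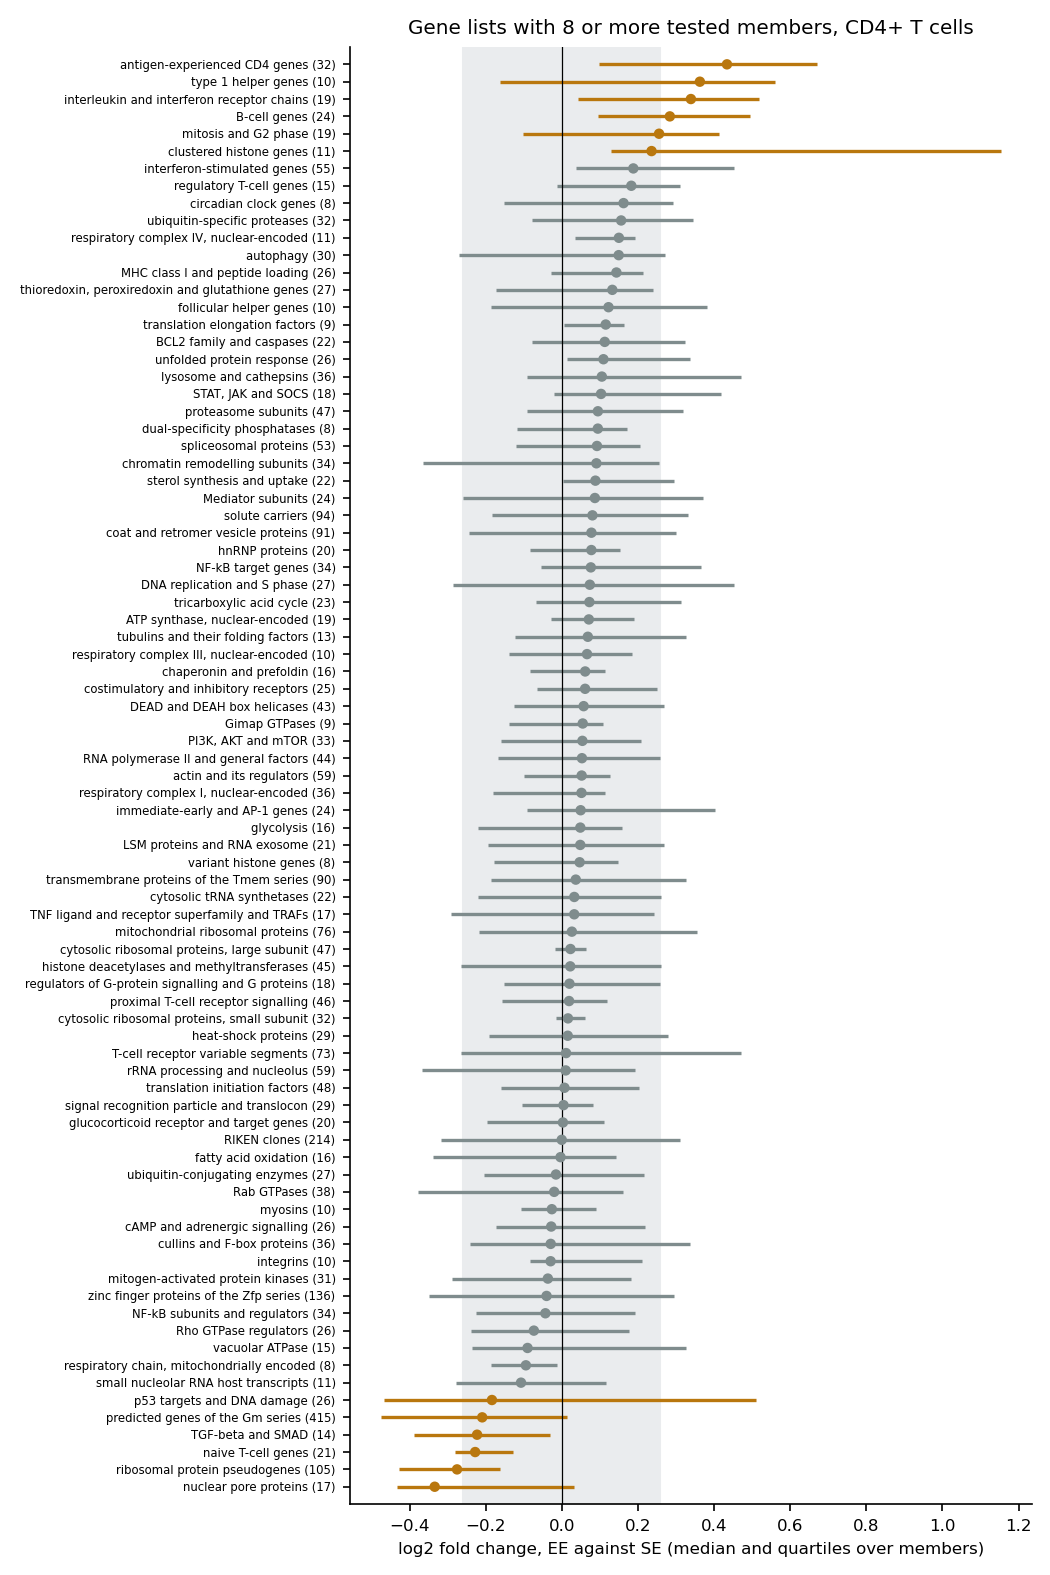
Each row is 1 of the 83 gene lists with at least 8 tested members, with the number tested in brackets, and the x axis is the log2 fold change of EE against SE. Dots are medians over members, bars span the quartiles, the grey band spans the quartiles of all 7939 genes (-0.26 to 0.26), and orange marks the 12 lists at either end. The medians run from the lowest, -0.33, to the highest, 0.43, and several of the 12 lie within the grey band.

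Antigen-experienced genes made up the list with the highest median. Of its 39 genes, 32 were tested, 27 had a log2 fold change above 0, 7 were higher and 0 lower at an unadjusted p under 0.05, and the median was 0.43 with quartiles of 0.097 and 0.67. Without the S100 genes, 23 of 28 were above 0, 3 (10.7%) were higher and 0 lower at that limit, and the median was 0.33. The highest scores came from EE replicates 2, 5 and 4, at 0.74, 0.49 and 0.49. The scores of EE replicates 1, 3 and 6 were -0.14, -0.19 and -0.22, inside the SE values of -0.59, 0.029, -0.060, -0.51 and -0.040. The groups therefore overlapped, with 3 of 6 EE samples above every SE sample.

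S100a10 encodes a partner protein of annexin A2. Its normalized count was 71.8 at the lowest, 122 at the median and 165 at the highest in EE, and 84.4, 45.8, 78.6, 68.4 and 78.8 in SE. In EE, 4 of 6 animals exceeded all SE samples and the others were within the SE range. The log2 fold change was 0.71 with a standard error of 0.17 (adjusted p = 0.481 in limma). Lgals1 encodes galectin 1, a sugar-binding protein of activated T cells, and had 36.9, 92.8 and 127 at the lowest, median and highest in EE against 50.5, 59.5, 66.7, 45.6 and 72.1 in SE. In 5 of 6 EE samples it was above every SE sample and in the sixth below all of them, with a log2 fold change of 0.49 (limma, standard error 0.19, adjusted p = 0.741). S100a4, a calcium-binding protein of motile cells, ran from 1.26 to 50.4 in EE with a median of 22.1, against 2.06, 8.237, 11.9, 0.950 and 14.6 in SE, so that the groups overlapped at the low end. Cd44, the hyaluronan receptor, and Icos, a costimulatory receptor, are 2 of the 5 tested members that were below 0, at -0.20 and -0.0044, and both were picked after their values were seen. With each sample left out, the median of the list ran from 0.22, without EE replicate 2, to 0.52, without EE replicate 1. It was 0.28 without SE replicate 5.

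Ccl5, a chemokine made by memory and cytotoxic cells, held the widest range of the list, from 3.21 through a median of 67.9 to 171 in EE, and 0, 45.8, 35.7, 32.3 and 4.51 in SE. EE replicate 1 was the highest and EE replicate 3 lay below most SE samples, and the log2 fold change was 1.80 (limma, standard error 0.57, adjusted p = 0.629). Without SE replicate 1, the only sample at 0, it was 0.88. Ccl5 and Nkg7, a granule protein, also belong to the list of natural killer and cytotoxic genes. Over the 15 of 26 genes of that list in the table, the summed level was 43.8 to 212 in EE (median 123) and 25.7 to 86.0 in SE (median 66.5). The 13 genes other than Ccl5 and Nkg7 summed to 24.9 to 34.0 in EE and 18.1 to 31.5 in SE, overlapping ranges. Of the markers that define natural killer cells, Ncr1 was not listed. Klrb1c was at 0 in 9 of the 11 samples, and the others, EE replicates 2 and 5, had 1.07 and 1.83. Gzma and Gzmb were above 0 in 1 EE sample each, at 1.11 and 0.922, and in 0 SE samples.

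Type 1 helper genes had a median of 0.36 over 10 tested of 18 listed, with 6 above 0, 1 higher and 0 lower at an unadjusted p under 0.05. The list shares Ccl5, Nkg7 and Cxcr3 with the antigen-experienced genes, which is 30% of its tested members. Cxcr3, the chemokine receptor of type 1 cells, had 3.21, 7.53 and 22.9 at the lowest, median and highest in EE against 1.03, 9.15, 5.49, 2.85 and 11.3 in SE. Ly6c2, a surface protein of effector cells, had a log2 fold change of -0.62 (limma, standard error 0.41, adjusted p = 0.878), opposite in sign to the median. It was -0.28 without EE replicate 1 and -0.32 without SE replicate 4. The log2 fold change of Cxcr3, 0.56, was 0.26 without EE replicate 5 and 0.18 without SE replicate 1. The scores overlapped between environments, and SE replicate 1 had the lowest at -0.96. The median was 0.24 without EE replicate 5, 0.20 without SE replicate 1 and 0.19 without SE replicate 4.

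Receptor chains for interleukins and interferons had a median of 0.34 over 19 tested of 27 listed, with 15 above 0, 2 higher and 0 lower at an unadjusted p under 0.05. The list scores did not overlap. They were 0.060 at the lowest, 0.15 at the median and 0.18 at the highest in EE, and -0.30, -0.090, -0.18, -0.048 and -0.19 in SE. Il2rb, the beta chain shared by the receptors of interleukins 2 and 15, had 5.04, 9.28 and 16.5 at the lowest, median and highest in EE and 1.03, 8.237, 7.31, 7.60 and 3.38 in SE. In 5 of 6 EE samples it was above every SE sample, with a log2 fold change of 0.86 (limma, standard error 0.39, adjusted p = 0.823). Ifngr1, the ligand-binding chain for type II interferon, had a log2 fold change of 0.69, although the highest value of all, 29.3, belonged to SE replicate 6. Without SE replicate 1, Il2rb had 0.49 and Ifngr1 0.32, and without SE replicate 6 Ifngr1 had 1.04. Il21r and Il17ra, receptors of interleukins 21 and 17, had 0.44 and 0.34, and the abundant Il7r, the receptor for the survival cytokine of naive cells, had 0.068. Without SE replicate 6, Il21r had 0.16, and Il7r ran from 0.017 to 0.12 with each sample left out. With genes of a mean above 10 only, the median of the list was 0.068, so that its position rested on members with few molecules, and it was 0.22 without SE replicate 3 and 0.19 without SE replicate 6.

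Naive T-cell genes had a median of -0.23 over all 21 listed genes, with 4 above 0, 0 higher and 2 lower at an unadjusted p under 0.05. The quartiles, -0.28 and -0.13, were close together, and the median percentile in the ranked list was 17.6. The scores did not overlap, at -0.19, -0.10 and 0.027 for the lowest, median and highest in EE and 0.11, 0.096, 0.10, 0.13 and 0.12 in SE. The spread among SE samples was small beside that among EE samples. EE replicates 4, 2 and 5 had the lowest naive scores, at -0.19, -0.15 and -0.15, and these were the samples with the highest scores of antigen-experienced genes.

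Satb1, a chromatin organizer of resting T cells, had 34.7, 61.1 and 70.5 at the lowest, median and highest in EE and 95.8, 65.9, 63.1, 80.8 and 83.3 in SE. In 4 of 6 EE samples it was below every SE sample, with a log2 fold change of -0.43 (limma, standard error 0.17, adjusted p = 0.741). Tcf7, a transcription factor of naive and stem-like T cells, had a log2 fold change of -0.28, and Treml2, a receptor related to the TREM family, -0.69, which was -0.42 without EE replicate 2. None of these differences passed the adjusted threshold. The median of the naive list ran from -0.26 to -0.19 with each sample left out.

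**Figure D2:**
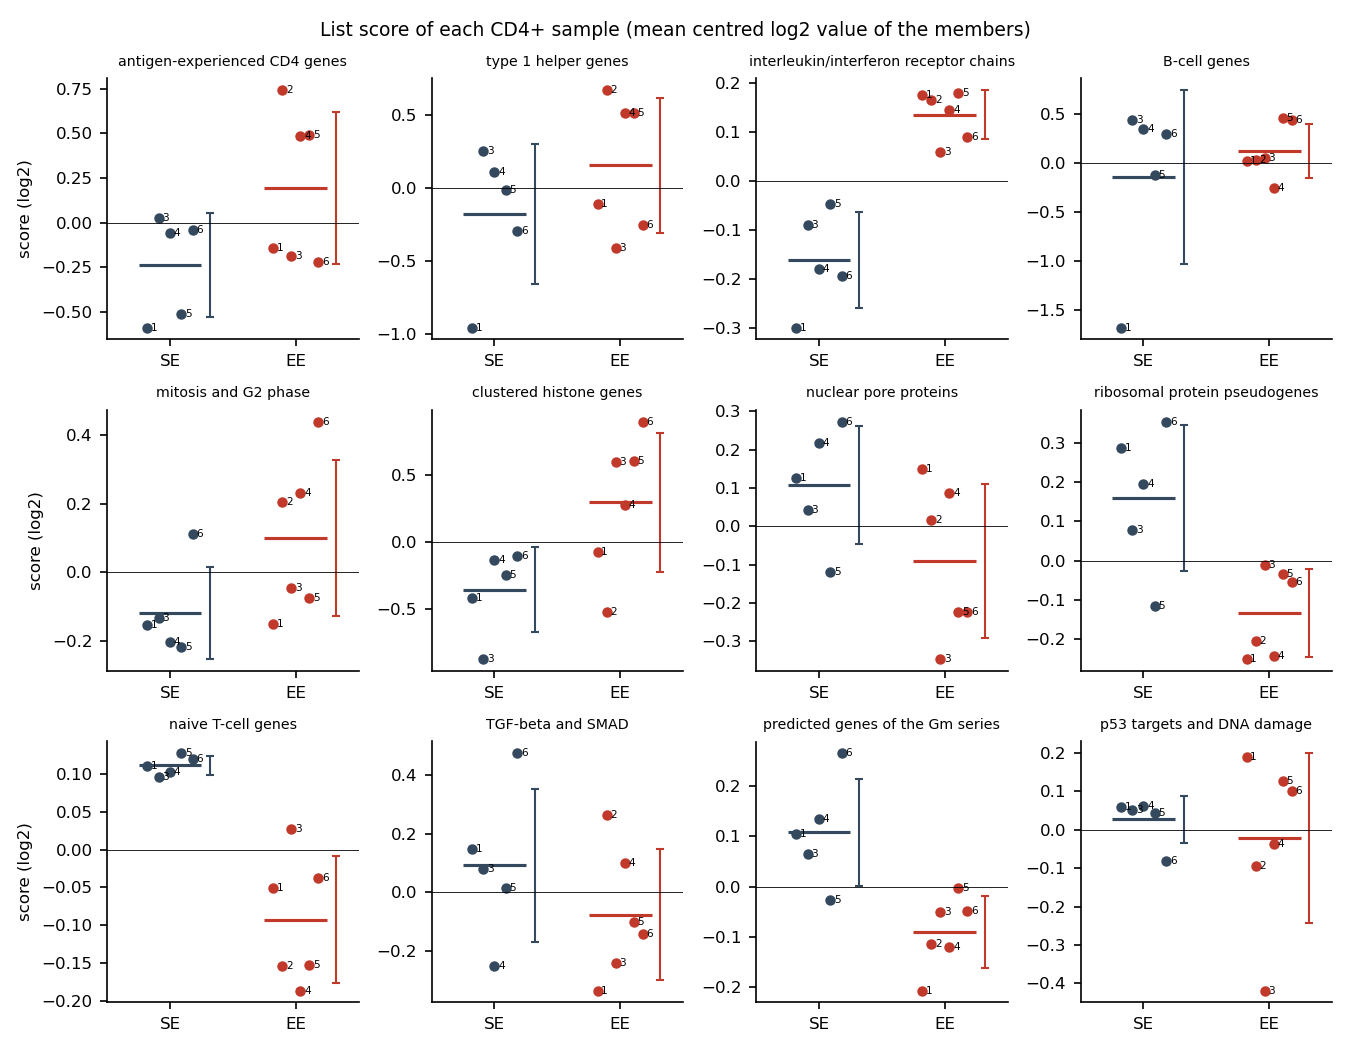
Each panel is 1 of the 12 lists at either end, the y axis is the list score on the log2 scale, and each numbered dot is a sample (SE, n = 5, dark, and EE, n = 6, red), with the mean as a line and the SD as a bar. The scores of receptor chains (0.060 to 0.18 in EE, -0.30 to -0.048 in SE) and of naive T-cell genes (-0.19 to 0.027 in EE, 0.096 to 0.13 in SE) do not overlap between environments, while the other 10 panels do.

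Marker genes of other cells were read alongside, since a sorted population can carry them. The B-cell list had a median of 0.28 over 24 tested of 37 listed, with 19 above 0, 2 higher and 0 lower at an unadjusted p under 0.05. Of the 2 higher members, 1 had a mean above 2 in EE alone. The score of SE replicate 1, -1.68, was far below all others, which lay between -0.25 and 0.46. Without that sample the median was -0.17, so that its direction rested on 1 library. The summed level of the 34 B-cell genes in the table was 353 to 504 in EE (median 449) and 132 to 671 in SE (median 444). Of the defining genes, Cd79a, a signalling chain of the B-cell receptor, was detected in all samples, with medians of 8.03 in EE and 15.8 in SE. Its partner chain Cd79b, also detected in all samples, had medians of 9.86 and 11.0, and Ms4a1, which encodes CD20, was above 0 in 5 of 6 EE and 4 of 5 SE samples with medians of 3.97 and 2.25. Cd74, the invariant chain of MHC class II, had its lowest value, 10.3, in SE replicate 1, while the remaining SE samples had 58.9 to 188.5, and its log2 fold change of 0.74 was 0.083 without that sample.

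Myeloid genes, of which 17 of 38 were in the table and 6 were tested, summed to 81.2 to 143 in EE and 77.2 to 118 in SE. Itgam, Cd14 and Adgre1, which define monocytes and macrophages, were not listed, and Lyz2 was at 0 in all samples but EE replicate 4, where it was 5.57. CD8 lineage genes summed to 13.9 to 42.1 in EE and 20.6 to 34.2 in SE over all 8 genes. Segments of immunoglobulin variable regions, 34 in the table, summed to 30.2 to 74.6 and 2.06 to 85.0, with the lowest in SE replicate 1. Csf1r, a further macrophage gene, was above 0 in 3 EE samples and 0 SE samples, and Pf4, a platelet gene, in 1 EE sample and 0 SE samples. Erythroid genes (8 of 16 in the table) summed to 1.84 to 27.8 and 0.950 to 19.2, platelet genes (4 of 16) to 11.9 to 22.3 and 8.236 to 22.8, and stromal and endothelial genes (3 of 18) to 12.9 to 19.3 and 6.40 to 30.9. These ranges overlapped between environments. The tested members still gave medians away from 0, with 0.30 over 6 myeloid genes (5 above 0, 1 higher and 0 lower at an unadjusted p under 0.05), 0.83 over 7 immunoglobulin variable segments (6 above 0, 0 higher, 1 lower), 0.33 over 6 natural killer and cytotoxic genes (4 above 0, 1 higher, 0 lower) and -0.21 over 3 CD8 lineage genes. Of the 7 variable segments, 5 had a mean above 2 in 1 group alone, and the 4 myeloid genes with such a mean in both groups had a median of 0.052 and the 4 natural killer genes 0.54. The part of such cells in the medians of the CD4+ lists was not tested.

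Pseudogenes of ribosomal proteins lay almost entirely on the lower side of the ranked list. A processed pseudogene is a copy of a messenger RNA that was written back into the genome, and it usually lacks a promoter of its own. Of the 170 listed as pseudogenes of ribosomal proteins, 105 were tested, 8 had a log2 fold change above 0, 0 were higher and 19 lower at an unadjusted p under 0.05, and the median was -0.28. The ribosomal proteins themselves had medians near 0. The large subunit had a median of 0.023 over 47 genes and the small subunit 0.016 over 32 genes, with quartiles within 0.064 of 0.

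Pseudogenes were then taken by annotation, ribosomal copies included. Among all tested genes that GENCODE M21 annotates as processed pseudogenes, 66 of 391 had a log2 fold change above 0, 0 were higher and 54 (13.8%) lower at an unadjusted p under 0.05, and the median was -0.25. Among 6966 protein-coding genes, 157 (2.25%) were lower and the median was 0.021. The predicted genes of the Gm series had a median of -0.21 over 415 tested, with 43 lower and 7 higher at an unadjusted p under 0.05, and of -0.13 without the filter on means. Of these, the 271 annotated as processed pseudogenes had a median of -0.25 and the other 144 a median of -0.12.

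The following stretches show how little separates such a copy from the gene it came from, which is why they are printed. They are 90 bases of the sense strand from the coding part, 5′ to 3′, taken from the GENCODE M21 transcripts, with capitals at the bases that differ within a pair. Gm13680 is on chromosome 2 of GRCm38 from 83353157 to 83353949, minus strand, and its parent Rps4x, a protein of the small ribosomal subunit, on chromosome X from 102184941 to 102189394. Gm5879 is on chromosome 6 from 87764996 to 87766204, minus strand, and its parent Rpl3, a protein of the large subunit, on chromosome 15 from 80077791 to 80091868.
Gm13680: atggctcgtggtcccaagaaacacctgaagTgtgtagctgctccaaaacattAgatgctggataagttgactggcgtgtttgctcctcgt
Rps4x: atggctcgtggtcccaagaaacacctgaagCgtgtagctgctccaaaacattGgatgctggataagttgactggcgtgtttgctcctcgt
Gm5879: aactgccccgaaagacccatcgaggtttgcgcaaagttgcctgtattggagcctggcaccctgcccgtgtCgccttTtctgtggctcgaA
Rpl3: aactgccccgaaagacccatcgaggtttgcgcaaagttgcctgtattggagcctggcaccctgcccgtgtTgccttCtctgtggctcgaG

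These windows were chosen for the most differences, 2 of 90 bases in the first pair and 3 of 90 in the second. Over the whole alignment, 12 of 790 positions differed between Gm13680 and Rps4x, and 12 of 1209 between Gm5879 and Rpl3. Counts of genes with such copies are uncertain, because a short read may be assigned to either. Where along the transcripts the reads lay was not analysed here.

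Gm5879 had 0, 4.072 and 5.34 at the lowest, median and highest in EE and 9.27, 13.7, 11.0, 7.60 and 18.02 in SE. All 6 EE samples were below all 5 SE samples, with a log2 fold change of -1.70 (limma, standard error 0.43, adjusted p = 0.481), while Rpl3 had -0.029 (standard error 0.10). Gm13680 had 44.3, 48.4 and 63.3 in EE and 73.1, 66.8, 72.2, 66.5 and 95.7 in SE, again with no overlap. Its log2 fold change was -0.55 (limma, standard error 0.16, adjusted p = 0.629) beside 0.0063 for Rps4x. Tpt1-ps3 has a sequence identical over 516 bases to the coding part of Tpt1, which encodes the translationally controlled tumour protein. It had 29.0, 55.9 and 77.0 in EE and 90.6, 90.6, 64.9, 70.3 and 93.5 in SE. Here the groups overlapped, with 3 of 6 EE samples below every SE sample and a log2 fold change of -0.60 (limma, standard error 0.19, adjusted p = 0.629), beside 0.052 for Tpt1.

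Of the 391 tested processed pseudogenes, 372 matched the coding part of a tested gene at 90% identity or more over at least 50% of its length, which gave 160 parent genes. A parent here is a gene annotated as protein-coding, and 7 of them, the parents of 12 pseudogenes, are copies or predicted genes by their names, such as Rps12-ps3, the parent of Rps12-ps9. The pseudogenes had a median log2 fold change of -0.26, 313 of 372 were below 0 and 315 of 372 were below their own parent. The parents had a median of 0.018, with 71 of 160 below 0. Without those 7 parents, an alternative added after seeing the data, the medians were -0.26 over 360 pseudogenes, of which 309 were below their parent, and 0.023 over 153 parents. Copies of ribosomal proteins had a median of -0.28 with 239 of 266 below 0, and copies of other genes a weaker one of -0.16 with 74 of 106 below 0. By identity the medians were -0.38 for 34 pseudogenes at 90 to 95%, -0.34 for 103 at 95 to 98%, -0.27 for 86 at 98 to 99%, -0.24 for 112 at 99% to below 100%, and -0.24 for 37 at 100%. The less a copy resembled its parent, the lower its median, and the fewer molecules it had, with median means of 4.128 in the lowest class and 30.3 in the highest.

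Added over these genes, the pseudogenes took 17.7% at the lowest, 19.2% at the median and 20.4% at the highest of the molecules of pseudogenes and parents together in EE. In SE they took 21.4%, 22.3%, 22.2%, 20.0% and 22.9%. SE replicate 5, at 20.0%, was the only SE sample within the EE range. In CD8+ samples the shares were 19.8% to 22.1% in EE and 19.5% to 22.9% in SE and overlapped widely, but the difference between the populations in this respect was not tested. Within the EE samples the share was greater in deeper samples, from 17.7% in EE replicate 1 with 145546 molecules to 20.4% in EE replicate 5 with 183941. SE replicate 6 had the highest share of CD4+ samples, 22.9%, with the fewest molecules of the SE group, 157556. The part of depth in the pseudogene difference was not tested.

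**Figure D3:**
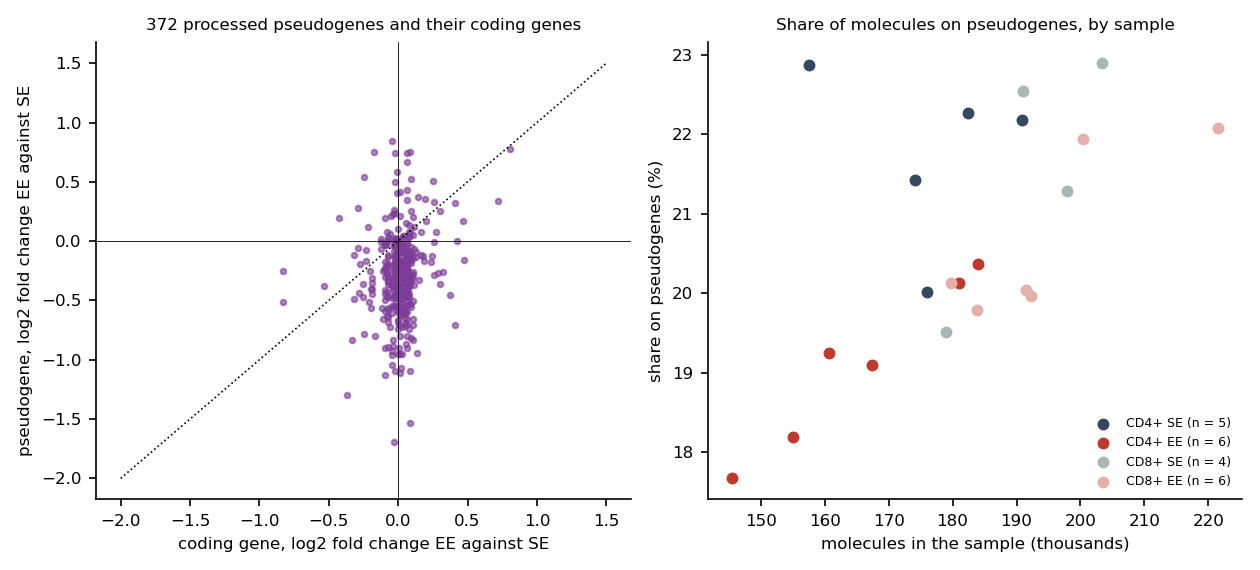
On the left each of 372 processed pseudogenes is plotted by the log2 fold change (EE against SE, CD4+ samples) of its coding parent on the x axis and its own on the y axis, and the dotted line marks equality, below which 315 of them lie. On the right each sample is plotted by its total molecules (x axis) and the share of molecules on pseudogenes among pseudogenes and parents (y axis, percent), where the 6 CD4+ EE samples lie at 17.7% to 20.4%.

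Histone and cell cycle genes lay on the higher side. Clustered histone genes, which supply replicating cells, had a median of 0.24 over 11 tested of 33 listed, with all 11 above 0, 4 higher and 0 lower at an unadjusted p under 0.05. Their fold changes fell into separate ranges, with 5 between 0.80 and 1.83 and 6 between 0.029 and 0.24. Of the 4 higher members, 2 had a mean above 2 in EE alone, and the 9 members with such a mean in both groups had a median of 0.15 with 2 higher. With the median at the edge of the lower range, it was 0.36 to 0.59 without any 1 of EE replicates 1, 2 and 6 and SE replicates 1, 3, 5 and 6, the highest without SE replicate 1. Hist1h2ap, a histone H2A gene, had 9.62, 17.5 and 62.7 at the lowest, median and highest in EE and 8.236, 2.75, 13.7, 4.75 and 7.88 in SE. The highest value came from EE replicate 6, and 4 of the 6 EE values exceeded every SE value, with a log2 fold change of 1.35 (limma, standard error 0.35, adjusted p = 0.566). Hist1h2ao, with 0.80, has a coding sequence identical to that of Hist1h2ap over 390 bases, so that the 2 genes cannot be taken as separate evidence, and it had 0.53 without EE replicate 6 and 0.37 without SE replicate 3.

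Mitosis and G2 genes had a median of 0.26 over 19 tested of 54 listed, with 12 above 0, 1 higher and 0 lower at an unadjusted p under 0.05. The 1 higher member was Cks1b, a subunit of cyclin-dependent kinases, whose mean was 3.47 in EE and 0.366 in SE, so that it passed the filter through EE alone. Among the 14 members with a mean above 2 in both groups the median was 0.26, with 0 higher and 0 lower in limma. Cks1b had 0, 2.87 and 7.48 at the lowest, median and highest in EE and 0, 0.915, 0.914, 0 and 0 in SE, which is at most 1 molecule in an SE sample. Ube2s, an enzyme of the anaphase-promoting complex, had a log2 fold change of 0.63, Cenpa, the centromeric histone, 0.58, and H2afz, a variant histone, 0.28. The value of H2afz was 0.12 without SE replicate 5 and 0.42 without SE replicate 4. The score of EE replicate 6 was the highest at 0.44, and that of SE replicate 6, 0.11, stood above the other SE samples. With genes of a mean above 10 only, the median was 0.040, and it was 0.16 without EE replicate 2, 0.13 without SE replicate 4 and 0.12 without SE replicate 5. The S-phase list had a median of 0.074 over 27 genes with 0 past an unadjusted p of 0.05 in limma in either direction.

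p53 targets and DNA damage genes had a median of -0.18 over 26 tested of 43 listed, with 10 above 0, 0 higher and 2 lower at an unadjusted p under 0.05, and wide quartiles of -0.47 and 0.51. Trp53, which encodes p53 itself, had 17.1, 20.1 and 24.7 at the lowest, median and highest in EE and 26.8, 23.8, 40.2, 33.3 and 32.7 in SE. In 5 of 6 EE samples it was below every SE sample, with a log2 fold change of -0.59 (limma, standard error 0.22, adjusted p = 0.735). Mdm2, the ligase that degrades p53 and is also its target, had -0.95, Xrcc5, a subunit of the Ku complex of end joining, -1.01, and Atr, a kinase of the replication checkpoint, -0.83. The scores differed less than the median, with means of -0.022 in EE and 0.027 in SE. The median was closer to 0 without EE replicate 3 (-0.053), EE replicate 5 (-0.12), SE replicate 1 (-0.076), SE replicate 5 (-0.060) or SE replicate 6 (-0.11), and was -0.090 with genes of a mean above 10 only and -0.12 over the 25 members with a mean above 2 in both groups. Without EE replicate 4, Xrcc5 had -0.67 and Mdm2 -0.59.

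Genes of TGF-beta signalling had a median of -0.22 over 14 tested of 23 listed, with 3 above 0, 0 higher and 1 lower at an unadjusted p under 0.05. Smad4, the common partner of the receptor-activated SMAD proteins, had 2.52, 5.88 and 7.48 at the lowest, median and highest in EE and 9.27, 11.9, 13.7, 6.65 and 13.5 in SE. In 4 of 6 EE samples it was below every SE sample, with a log2 fold change of -0.99 (limma, standard error 0.37, adjusted p = 0.735). The ligand Tgfb1 and the signal carrier Smad2 had -0.57 and -0.56, whereas the receptor Tgfbr1 had 0.77 and the more abundant receptor Tgfbr2, named after its value was seen, 0.094. Single samples weighed on these, since Tgfb1 had -0.30 without EE replicate 4, Smad2 -0.31 without EE replicate 5 and Tgfbr1 0.33 without SE replicate 4. Only Tgfbr2 had a mean above 10, so that the direction of the list rested on genes with few molecules, and the median was -0.14 without EE replicate 1 or without SE replicate 6.

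Nuclear pore proteins had the lowest median of all, -0.33, over 17 tested of 19 listed, with 5 above 0 and 0 past an unadjusted p of 0.05 in limma in either direction. Nup50, a mobile pore protein, had 5.49, 14.7 and 20.2 at the lowest, median and highest in EE and 15.4, 21.1, 16.5, 19.0 and 21.4 in SE, a log2 fold change of -0.46 (limma, standard error 0.28, adjusted p = 0.861), which was -0.23 without EE replicate 5. Nup54, Nup155 and Nup35, structural pore proteins with fewer molecules, had -0.88, -0.60 and -0.60. Over the 15 members with a mean above 2 in both groups the median was -0.12. With single samples left out it moved to -0.12 without SE replicate 1, -0.14 without SE replicate 4 and -0.16 without EE replicate 5 or 6, and the scores overlapped.

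**Figure D4:**
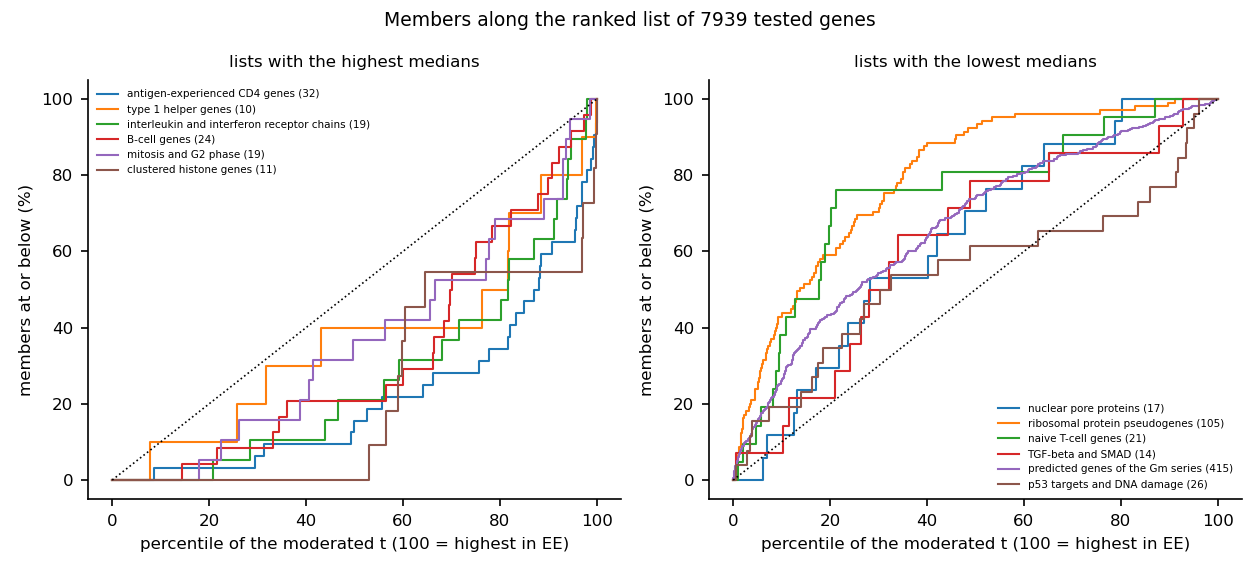
Each step line is 1 list, the x axis is the percentile of a member in the list of 7939 genes ranked by moderated t (100 is highest in EE), and the y axis is the share of members at or below it in percent. Lines below the dotted diagonal (left) hold more members near the EE end, and lines above it (right) more near the SE end, of which the ribosomal protein pseudogenes, 105 genes, and the naive T-cell genes, 21 genes, rise earliest.

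The lists chosen for their role were mostly near the background. Glucocorticoid receptor and target genes, which report stress hormone, had a median of 0.0029 over 20 tested of 32 listed, with 10 above 0 and 0 past an unadjusted p of 0.05 in limma, and 0.018 over the 19 with a mean above 2 in both groups. Nr3c1, the glucocorticoid receptor, had a log2 fold change of -0.12 (standard error 0.26), and its target Tsc22d3 0.094 (standard error 0.18). Among the further members with a mean above 10, Klf13, a Kruppel-like factor, had 0.27, Fkbp4, a co-chaperone of the receptor, 0.025, Ddit4, an inhibitor of mTOR, -0.24, Sesn1, a stress-induced protein, -0.12, Irf1, an interferon regulatory factor, -0.12, Pik3ip1, an inhibitor of phosphoinositide 3-kinase, -0.013, and Txnip, a thioredoxin-binding protein, -0.34. Single samples moved these values. With each sample left out, Ddit4 ran from -0.54 to -0.10, Sesn1 from -0.25 to -0.035, Irf1 from -0.21 to -0.004, and Nr3c1 from -0.27 to -0.027, while Tsc22d3, Fkbp4 and Pik3ip1 took either sign. Circadian clock genes had a median of 0.16 over 8 tested of 23 listed, with 0 past an unadjusted p of 0.05, and its sign was not stable, at -0.002 with no filter on means and -0.25 with genes of a mean above 10 only. Of these only Per1, a repressor of the clock, and Dbp, an output factor, had a mean above 10, at 0.058 and -0.55, and Dbp had -0.23 without EE replicate 5 and -0.33 without SE replicate 1. With each sample left out, the median of the clock genes ran from 0.011, without EE replicate 3, to 0.28, without EE replicate 1, and that of the glucocorticoid genes from -0.12 to 0.050.

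NF-kB subunits and regulators had a median of -0.043 over 34 tested of 37 listed, with 14 above 0, 2 higher and 1 lower at an unadjusted p under 0.05. The 1 lower member, Tnfaip3, named after its value was seen, had a mean above 2 in SE alone. Relb, the subunit of the alternative NF-kB pathway, had 9.62, 13.7 and 27.8 at the lowest, median and highest in EE and 5.15, 5.49, 6.40, 2.85 and 7.88 in SE. All 6 EE samples were above all 5 SE samples, with a log2 fold change of 1.31 (limma, standard error 0.33, adjusted p = 0.481). Ikbke, a kinase of the pathway, had 20.1, 22.1 and 33.2 in EE and 11.3, 15.6, 19.2, 19.0 and 20.3 in SE, with 4 of 6 above every SE sample and a log2 fold change of 0.51. The subunits Rela and Nfkb1 had 0.25 and -0.21, and the inhibitor Nfkbia 0.018. The kinase Ikbkb had -0.093, the adaptors Tab2 and Traf1 -0.042 and 0.19, the deubiquitinases Cyld and Otulin -0.31 and -0.026, and the ubiquitin ligases Birc3 and Rbck1 -0.050 and -0.075. With 1 sample left out, Cyld had -0.10 without SE replicate 6, Nfkb1 -0.46 without SE replicate 1, Rela 0.43 without EE replicate 1 and Traf1 0.34 without SE replicate 5, and Nfkbia and Birc3 took either sign depending on the sample. Relb therefore stood apart from the members around it, the median of the list ran from -0.086 to 0.034 with each sample left out, and 34 NF-kB target genes had a median of 0.076, with 2 higher and 1 lower, the latter Tnfaip3 again.

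Interferon-stimulated genes were singled out after their values were seen, because the list stood just behind the 6 highest. Their median was 0.19 over 55 tested of 67 listed, with 45 above 0, 4 higher and 0 lower at an unadjusted p under 0.05. Slfn5, a Schlafen protein, had 8.82, 9.42 and 18.9 at the lowest, median and highest in EE and 8.236, 11.9, 8.23, 4.75 and 0 in SE, a log2 fold change of 1.06. Bst2, which encodes tetherin, a protein that holds virus particles at the cell surface, had 6.44, 16.9 and 19.2 against 6.18, 6.41, 11.0, 19.0 and 3.38, and Ly6a, a surface protein of activated lymphocytes, had 69.5, 85.9 and 121 against 68.0, 69.6, 71.3, 36.1 and 90.1. The groups overlapped for all 3 genes, and the log2 fold changes of Bst2 and Ly6a were 0.76 and 0.43 (adjusted p = 0.823 and 0.765 in limma). Scores overlapped too, with SE replicate 3 at 0.24 and EE replicate 1 at -0.22. The median was 0.12 without EE replicate 3 and 0.089 with genes of a mean above 10 only. Slfn5 had 0.43 and Bst2 0.50 without SE replicate 6, and Ly6a 0.23 without SE replicate 5.

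Promoters of these genes are bound by factors that interferon activates, through the interferon-stimulated response element. Of the 55 tested genes, 40 had a promoter in the RefSeq table (GRCm38.p6, 250 bases before to 50 after the start), and 19 of these (47.5%) held GAAA followed by any 2 bases and GAAA again, on either strand and with overlaps allowed, against 943 of 27025 promoters in all (3.49%). The 19 genes had a median log2 fold change of 0.24 with 15 above 0, and the 21 without the letters 0.16 with 18 above 0. A match is a description of the sequence and not evidence of binding here. The promoter stretches of Slfn5 (chr11:82951902-82952001, plus strand) and Bst2 (chr8:71537542-71537647, minus strand) are printed on the sense strand, 5′ to 3′, as examples, with the matches in capitals.
Slfn5: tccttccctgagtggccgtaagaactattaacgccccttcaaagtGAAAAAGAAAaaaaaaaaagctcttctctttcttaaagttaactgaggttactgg
Bst2: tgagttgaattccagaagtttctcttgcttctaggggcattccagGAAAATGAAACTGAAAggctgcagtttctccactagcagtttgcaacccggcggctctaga

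MHC class I and peptide loading genes had a median of 0.14 over 26 tested of 27 listed, with 19 above 0, 2 higher and 0 lower at an unadjusted p under 0.05. H2-K1, a classical class I heavy chain, had 341, 362 and 397 at the lowest, median and highest in EE and 311, 332, 348, 324 and 292 in SE. The steps were small but 5 of the 6 EE values exceeded every SE value, with a log2 fold change of 0.19 (limma, standard error 0.094, adjusted p = 0.835). H2-Q7, a nonclassical chain, had 0.27. The H2 genes are near-identical in part, and their counts are uncertain for that reason. The median of the list was 0.072 without SE replicate 6.

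Lysosome and cathepsin genes had a median of 0.11 over 36 tested of 41 listed, with 22 above 0, 4 higher and 0 lower at an unadjusted p under 0.05. Ctsd, which encodes the protease cathepsin D, had 33.3, 40.7 and 43.3 at the lowest, median and highest in EE and 12.4, 29.3, 34.7, 20.0 and 24.8 in SE. In 5 of 6 EE samples it was above every SE sample, with a log2 fold change of 0.75 (limma, standard error 0.22, adjusted p = 0.629). Npc1, a cholesterol transporter of lysosomes, Man2b1, a lysosomal mannosidase, and Ctsb, the protease cathepsin B, had 1.22, 0.53 and 0.49. These 3 genes were chosen after their values were seen, as were H2-K1, H2-Q7 and S100a11, a further S100 protein, with 0.47. The median of the list was 0.069 without SE replicate 6 and 0.16 without SE replicate 1, and Ctsb had 0.32 without SE replicate 6.

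The large cellular machines were close to the centre of the ranked list. In energy metabolism the medians of 11 lists lay between -0.094 for the respiratory chain genes of the mitochondrial genome and 0.15 for nuclear-encoded complex IV, and 9 of 11 were above 0. In protein folding and turnover 10 lists lay between -0.090 for the vacuolar ATPase and 0.16 for ubiquitin-specific proteases. In protein synthesis the 8 lists other than the pseudogenes were above 0, the highest being elongation factors with 0.12. In RNA handling the spliceosomal proteins had the highest of 11 medians, 0.092 over 53 genes. In cytoskeleton and membrane traffic, 5 lists lay between -0.026 and 0.078. T-cell receptor variable segments had a median of 0.011 over 73 tested, and proximal signalling of the receptor 0.019 over 46. Among the T-cell states not described above, regulatory T-cell genes had 0.18 over 15 genes and follicular helper genes 0.12 over 10, with 0 past an unadjusted p of 0.05 in limma in both. Over the 13 regulatory genes with a mean above 2 in both groups the median was 0.061.

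Among single genes with a mean above 10, those higher in EE with the smallest p and not yet described were Mplkip, a nuclear protein linked to hair and DNA repair disorders, Tex261, a protein of the early secretory pathway, Arl6ip4, a splicing regulator, Bloc1s1, a subunit of lysosome-related organelle complexes, and Lman2, a cargo receptor of the secretory pathway. Their log2 fold changes were 1.16, 1.11, 1.197, 0.81 and 0.84 (adjusted p = 0.629 in limma for each), and that of Arl6ip4 was 0.62 without SE replicate 6. Mplkip had 11.8, 14.5 and 20.1 at the lowest, median and highest in EE and 5.15, 11.9, 6.40, 7.60 and 2.25 in SE, with 5 of 6 EE samples above every SE sample.

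Of the 10 lower genes, Sra1, an RNA and protein coactivator of nuclear receptors, was the only one that is neither a pseudogene, a predicted gene nor a retrotransposed copy by its name or annotation. It had 7.32, 13.9 and 30.2 at the lowest, median and highest in EE and 17.5, 27.5, 36.6, 26.6 and 25.9 in SE, with 5 of 6 EE samples below every SE sample and a log2 fold change of -0.87 (limma, standard error 0.27, adjusted p = 0.629). The others were Gm15421, Gm13680, Tpt1-ps3, Gm13340, Gm4832, Gm11808, Gm10335, Gm10288 and Rps27rt, with log2 fold changes between -0.83 for Gm11808 and -0.42 for Rps27rt. Gm10335 and Gm10288 each differ from the coding part of their parent, Rpl23a and Rpl11, at 1 base. The parents had -0.097 and 0.062. Among the named pseudogenes of ribosomal proteins, Rps24-ps3, Rpl36-ps2, Rpl9-ps4 and Rps12-ps9 had -1.07, -0.43, -0.44 and -0.45.

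**Figure D5:**
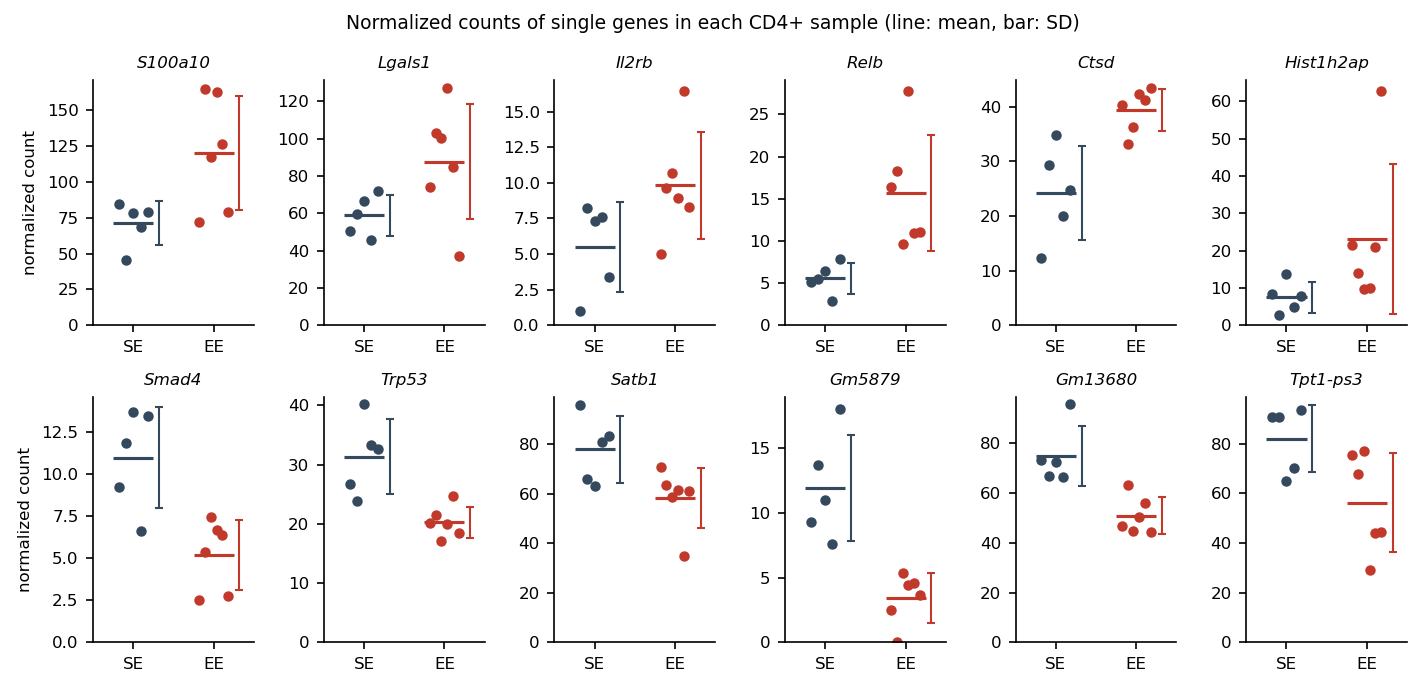
Each panel is 1 gene, the y axis is the normalized count from 0, each dot is a CD4+ sample (SE, n = 5, dark, and EE, n = 6, red), lines are means and bars are SDs. Relb, Gm5879 and Gm13680 do not overlap between environments, and in the others at least 1 sample of one environment lies in the range of the other.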

How the data were processed

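CD4+ T cells of 6 EE and 5 SE mice were analysed, assigned by sample label. Per the labels and the study's methods, the authors trimmed reads with cutadapt, aligned them with STAR 2.4.0a to mm10, counted UMIs per gene on an Ensembl model of GRCm38 with the Drop-seq tools, removed samples by purity and scarce genes, and divided by DESeq2 size factors. The deposited signal is thus a normalized molecule count, given for 12994 genes and 21 samples. The purity rule of the methods leaves out CD4+ samples in which Cd8a and Cd8b are above 0. In the deposited CD4+ samples Cd8a was above 0 in 2 EE and 3 SE samples and Cd8b1 in all 6 and 5, so these values do not meet that rule as stated. Dividing the values of a sample by the lowest of them above 0 gave back molecules, of which 100% were whole within 0.001. Fragments that share sequence with a copy elsewhere, and depth, can move such counts. Of the gene names, 12489 matched the reference symbols, and 505 were kept as listed.

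EE and SE were compared with limma 3.58.1 in R 4.3.3 (trend) on log2(value + 1), leaving out genes with a mean of 2 or less, with Benjamini-Hochberg adjustment at 0.05. The totals of molecules and of genes detected per sample were compared by exact permutation. The summed levels of marker genes and the shares of pseudogenes were not tested. Pseudogenes were aligned to coding parts with BLAST 2.17.0. The fits were repeated with all genes, with means above 10 only, with a pseudocount of 0.5, with equal totals, with edgeR 4.0.16 and DESeq2 1.42.0 on molecules, with a replicate block for the animal number, and without each sample in turn. Of 103 lists, the 6 highest and 6 lowest medians with at least 8 tested members were described in depth, with up to 4 members of smallest p each, the 10 higher and 10 lower genes of smallest p with a mean above 10, and NF-kB, glucocorticoid and clock genes with a mean above 10. S100a6 and 12 genes tabulated by the study were counted but not described. The members, lists and tests were chosen with earlier results of these data known. The p-values measure the spread between animals that shared a cage. Python 3.11.15 was used for the other steps.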

Additional observations from a re-analysis of the deposited data

Results flagged for a closer look

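A sample far from the others of its group was looked for in 230 groups of values, and 15 were found where chance gives about 1 in 20, or 11.5. The cause was not tested for any of them.

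SE replicate 1 had a B-cell score of -1.68 against -0.122 to 0.441 in the other SE samples, and 9.27 for Ddit4 against 26.5 to 30.4. SE replicate 6 was flagged most often. Its mitosis score was 0.113 against -0.219 to -0.134, and its score of p53 and DNA damage genes -0.0817 against 0.0427 to 0.062. It also had 28.2 for Treml2 against 12.8 to 16.1, 95.7 for Gm13680 against 66.5 to 73.1, 36.0 for Gm11808 against 18.5 to 22.9, and 21.4 for Man2b1 against 11.9 to 14.6, and it had the fewest molecules of the SE samples. SE replicate 4 had 4.57 for Fcer2a against 0 to 0.95.

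EE replicate 6 had 62.7 for Hist1h2ap against 9.62 to 21.4 and 28.6 for Hist1h2ao against 5.34 to 11.0, genes with the same coding sequence, and 12.9 for Rps24-ps3 against 2.52 to 4.57. EE replicate 5 had 34.7 for Satb1 against 58.8 to 70.5. EE replicate 2 had 54.7 for Bloc1s1 against 25.6 to 34.2 and 29.0 for Irf1 against 42.3 to 49.4.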

How the results depend on the processing

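The number of genes with an adjusted p under 0.05, 1 in limma, was 0 at a pseudocount of 0.5 and for means above 10, 3 without a filter on means, 2 with edgeR and 0 with the replicate block, and ran from 0 to 3 with each sample left out. The number at an unadjusted p under 0.05, 5.82% of the genes, was 712 with all 12877 genes and 191 with the 2739 of a mean above 10, 308 with DESeq2, and 401 to 508 with each sample left out. The share of higher genes among them was 45.2% to 52.9% under the 7 alternatives, and leaving out single samples widened this to between 45% (EE replicate 5) and 56.1% (SE replicate 4). The animal numbers do not pair the samples (5 pairs, r from -0.0108 to 0.0287, 1 of 10 samples most like its own number), and the replicate block leaves EE replicate 2 without a partner. S100a6 lost its call with the block, at a log2 fold change of 1.25, and without EE replicates 2, 4 or 5 or SE replicates 1 or 5.

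Of 154 list medians recomputed under 7 alternatives, 148 moved by less than the spread between samples, the processed pseudogenes among them, a list added after seeing the data (-0.28 to -0.20). With a mean above 10 the receptor chains had 0.068 (11 genes, and 0.25 without a filter), mitosis 0.040 (6), histones 0.70 (2), TGF-beta 0.094 (1) and clock genes -0.25 (2), since fewer members were tested, and clock genes had -0.002 with no filter. Nuclear pore proteins had -0.12 over the members with a mean above 2 in both groups, chosen after seeing the data, where the other medians moved by less than the spread. With each sample left out, receptor chains ran from 0.19 to 0.40 and nuclear pore proteins from -0.39 to -0.12, and B-cell genes from -0.17 to 0.35. B-cell genes had 0.032 with edgeR.

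Named genes turned direction 7 times under the alternatives, all with fold changes near 0. Birc3 had 0.066 with edgeR and 0.081 with DESeq2, and Pik3ip1 0.0030, 0.012 and 0.086 with edgeR, DESeq2 and the block. Otulin had 0.12 and Rbck1 0.020 with the block. With each sample left out, Nfkb1 ran from -0.46 to 0.020, Fkbp4 from -0.20 to 0.32, Otulin from -0.16 to 0.13, Rbck1 from -0.28 to 0.10, Pik3ip1 from -0.081 to 0.086, Nfkbia from -0.095 to 0.14, Birc3 from -0.26 to 0.16, Per1 from -0.039 to 0.18, Tab2 from -0.15 to 0.048, H2-Eb1 from -0.21 to 0.84, Tsc22d3 from -0.026 to 0.23, Hist1h4i from -0.11 to 0.56 and Ikbkb from -0.21 to 0.030. The cause was not tested. Genes with few molecules limit the depth of the comparison.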
